A study of Mus musculus with 2 samples.

Results

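Long noncoding RNAs that mark cell types of the stria vascularis were followed in single nuclei of the mouse cochlea. The genes are Gm38048, Gm2115, RP23-243D10.3, Gm12153, Gm14505, Gm43154, RP23-416J8.1 and Otx2os1, matched by symbol, and they make up 8 of the 48816 features counted. The 8 genes were selected on measured values, because each stood out in 1 class of nuclei in these same matrices. Their levels by class are therefore given as a description, with no test. In GENCODE release M21, 7 of the 8 carry a noncoding biotype. Gm2115 does not, since that annotation lists it as protein coding, so for Gm2115 the name of a noncoding RNA goes against the annotation.

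The stria vascularis is the layered epithelium of the cochlear lateral wall that makes the endocochlear potential, the voltage hair cells draw on. Its marginal cells face the endolymph and secrete potassium through the channel Kcnq1, its intermediate cells are melanocyte-derived and carry the pigment enzymes Tyr and Dct, and its basal cells seal the layer with the tight junction protein Cldn11. Spindle and root cells lie at its edges, and Reissner's membrane is the sheet that bounds the endolymph above. Long noncoding RNAs are transcripts without a long reading frame. Many stay in the nucleus, and many are expressed in few cell types, often close to a protein-coding gene on the chromosome.

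The 2 libraries were made from stria vascularis of CBA/J mice at postnatal day 30, 1 by methanol fixation of isolated nuclei (MethFix) and 1 from tissue that had been stored in RNAlater (RNAlater). Each pooled several mice, and no label ties a nucleus to a mouse, so a difference between mice and a difference between cells cannot be told apart. With 1 library for each method, the methods were not compared by a test. The matrices held 4748 and 3868 barcodes and 21027671 and 17681824 unique molecular identifiers (UMIs, the tags that count single captured RNA molecules). They shared 3323 barcodes, 70.0% of those in MethFix and 85.9% of those in RNAlater, and among nuclei kept and named in both, 2069 of 2126 received the same class name. The 2 matrices are therefore not independent, and values from both are given side by side rather than as replicates. The study's methods describe mice of mixed sex. A UMI of any of 4 Y-linked genes (Ddx3y, Uty, Kdm5d, Eif2s3y) was present in 17 of 4748 and in 33 of 3868 barcodes. Xist had a UMI in 71.3% and 63.4% of all barcodes, and in 91.0% and 99.0% of intermediate nuclei. By the Y-linked genes, nuclei of male mice were not apparent in either matrix, but barcodes with neither sign cannot be assigned to a sex.

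After filtering, 3372 and 2311 nuclei remained, with a median of 3498.5 and 4702 UMIs. Clusters were made from protein-coding genes only, without the 8 genes and their neighbours, and named from coding markers. The 7 classes compared were marginal (1081 nuclei in MethFix and 670 in RNAlater), intermediate (853 and 522), basal (752 and 593), spindle (96 and 56), root (86 and 82), Reissner's membrane (156 and 155) and fibrocyte (102 and 16). The MethFix fibrocyte cluster was led by Coch and Slc4a11, but also by the bone markers Runx2 and Col1a1. RNAlater had a separate bone cluster of 62 nuclei, which was not compared. The clusters left unnamed held 236 and 149 nuclei. Levels are given as CPM, the UMIs of a gene per 1000000 UMIs of the class. Intervals are exact Poisson intervals at 95%, shares carry exact Clopper-Pearson intervals, and both cover counting error only.

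The classes were named from marker lists that include the genes below, so their ratios follow from the naming and are a description. The log2 ratio of the named class to all other classes pooled was 4.59 and 4.62 for Kcnq1, 7.24 and 7.40 for Esrrb, 7.20 and 7.68 for Tyr, 5.10 and 5.15 for Dct, 4.17 and 4.40 for Cldn11, 5.53 and 5.58 for Fat2, 6.87 and 6.5 for Anxa1, 9.03 and 8.93 for Ceacam16, and 9.22 and 9.12 for Slc26a7, in MethFix and RNAlater. Counts of a marker outside its class were visible. A UMI of Dct, which only pigment cells should make, was present in 77.1% of basal nuclei in MethFix and in 83.3% in RNAlater. The median depths of basal nuclei were 2485.5 and 3443 UMIs. In MethFix Dct stood at 1166 CPM in basal nuclei and between 366 and 806 in the other classes outside intermediate. The source of these counts was not tested. Gm2115, which led in the same intermediate class, had a UMI in 4.65% (95% interval 3.26 to 6.41) and 8.60% (6.47 to 11.2) of those basal nuclei. The 2 genes differ in level, so these shares are not alike in meaning. Dct stood at 21369 and 19187 CPM in intermediate nuclei and 1166 and 1041 in basal nuclei. For Gm2115 the levels were 421 and 456, and 18.1 and 26.3. How much of the low levels of the 8 genes outside their leading class is free RNA was not tested.

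All 8 genes were higher in their leading class by a log2 ratio of 2 or more over the other classes pooled, in both libraries. The pool holds the compared classes only, so unnamed clusters and classes not compared enter no ratio or rank. The background was 7378 genes that reached 20 UMIs in their leading class, of which 25.5% passed that mark, and of the 381 long noncoding genes among them, 44.6% did. Measured against the next highest class, 6 of the 8 passed, beside 6.83% of all genes and 13.6% of long noncoding genes. RP23-243D10.3 and Gm14505 did not pass, and for both the next class was fibrocyte. Because these ratios come from the contrast that chose the genes, nothing is read from the excess over the other genes. Among genes led by the same class, the ratio of Gm12153 was the highest of 1613 basal genes in both libraries and that of Gm43154 the highest of 459 spindle genes. Gm38048 ranked 3 of 2085 marginal genes in both. Otx2os1 ranked 3 and 2 of 850 Reissner's membrane genes, and RP23-416J8.1 5 and 8 of 677 root genes. Lower ranks were those of Gm14505, 49 and 29 of 1613 basal genes, Gm2115, 40 and 62 of 1513 intermediate genes, and RP23-243D10.3, 133 and 87. These ranks rest on the same contrast and are a description.

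**Figure D1:**
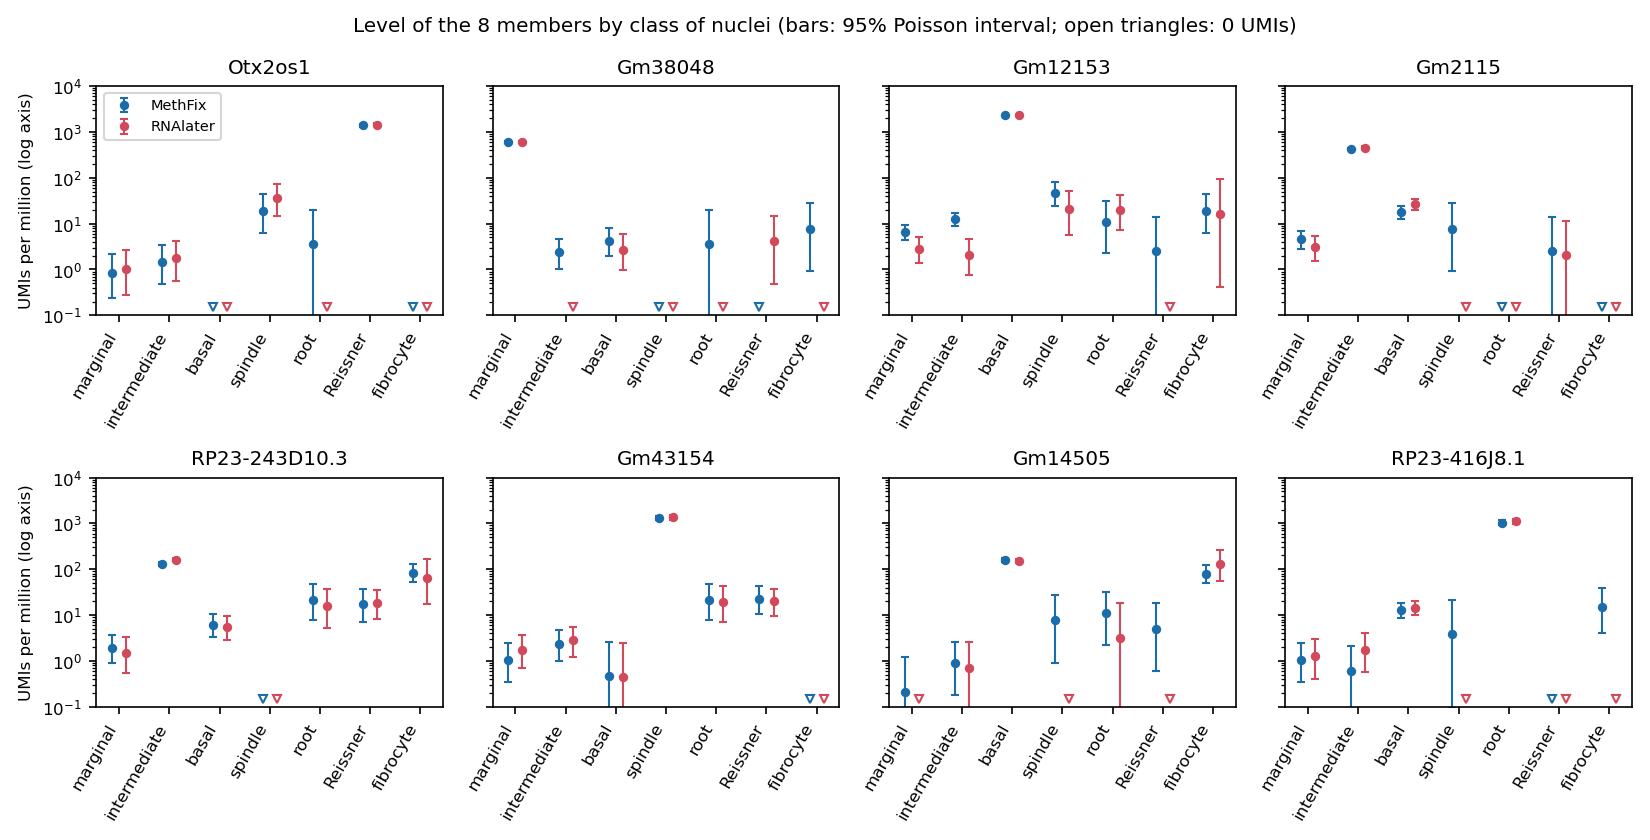
Each panel plots 1 gene, with CPM on a log axis against the 7 classes of nuclei, MethFix in blue and RNAlater in red. Bars are 95% Poisson intervals and open triangles mark classes with 0 UMIs. Each gene has 1 high class in both libraries, while RP23-243D10.3 and Gm14505 have a second, fibrocyte nuclei at 84.4 and 80.6 CPM in MethFix. In MethFix that class was also led by bone markers.

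Gm38048 was the marginal gene. It stood at 608 CPM in marginal nuclei in MethFix (interval 586 to 631) and at 605 in RNAlater (581 to 630.0). In the other classes pooled it stood at 2.99 and 1.31, log2 ratios of 7.67 (7.04 to 8.38) and 8.85 (7.87 to 10.06). These ratios leave out the unnamed clusters, where some of its UMIs lay. Over all nuclei kept, marginal nuclei held 94.7% and 97.6% of its UMIs. Its gene lies at chr3:64949223-65223701 on the plus strand of GRCm38, spans 274 kb and has 2 exons of 311 and 1863 bases. M21 classes it as sense overlapping, because its end runs into Kcnab1, a cytoplasmic beta subunit of voltage-gated potassium channels, on the same strand. In the M21 models no exon base is shared by the 2 genes, but 41.6% of the span of Gm38048 is. M21 starts Kcnab1 160.2 kb into the span, whereas RefSeq also gives Kcnab1 a start 11 bases before the first base of Gm38048. From that start the shared part would be larger and would take in the first bases of Gm38048. The promoter of that RefSeq start, shown because the transcripts of both genes begin in it, lies at chr3:64948962-64949261 on the plus strand, and its last 39 bases, in capitals, are the first bases of exon 1 of Gm38048.
Kcnab1 promoter at the start of Gm38048: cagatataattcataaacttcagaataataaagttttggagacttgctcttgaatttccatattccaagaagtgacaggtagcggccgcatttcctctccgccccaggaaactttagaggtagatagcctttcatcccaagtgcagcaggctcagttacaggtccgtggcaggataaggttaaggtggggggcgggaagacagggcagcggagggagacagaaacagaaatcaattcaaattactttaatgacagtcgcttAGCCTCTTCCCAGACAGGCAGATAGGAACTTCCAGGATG

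Gm38048 was not spread evenly over marginal nuclei. No UMI was found in 581 of 1081 marginal nuclei in MethFix (53.7%) and in 334 of 670 in RNAlater (49.9%). Had every marginal nucleus carried the gene at the same rate per UMI, the same total would have left 13.6% and 4.18% without one. Nuclei with and without Gm38048 were of like depth, at medians of 4705 and 4484 UMIs in MethFix and 6015 and 6143 in RNAlater. Nuclei that held it had a median of 3.5 and 5 UMIs and up to 35 and 40, and the richest 109 nuclei in MethFix and 67 in RNAlater held 56.9% and 52.2% of its UMIs. Kcnq1, at 3114 and 3205 CPM, was missing from 2.13% and 0.149% of the same nuclei. Esrrb, an orphan nuclear receptor at 2950.2 and 2989 CPM, was missing from 5.09% and 1.49%. With the same rate per UMI in every marginal nucleus, 0.629% and 0.0236% would lack Kcnq1 and 0.724% and 0.0289% Esrrb. Both markers therefore also exceeded that share. The split ran through every marginal cluster, with 50.1%, 54.6% and 69.4% of nuclei without Gm38048 in the 3 clusters of MethFix and 44.7%, 51.7% and 64.9% in those of RNAlater. One rate per UMI would have left 7.77%, 12.6% and 49.9%, and 3.10%, 5.38% and 9.18%, so the excess was least in the third MethFix cluster.

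**Figure D2:**
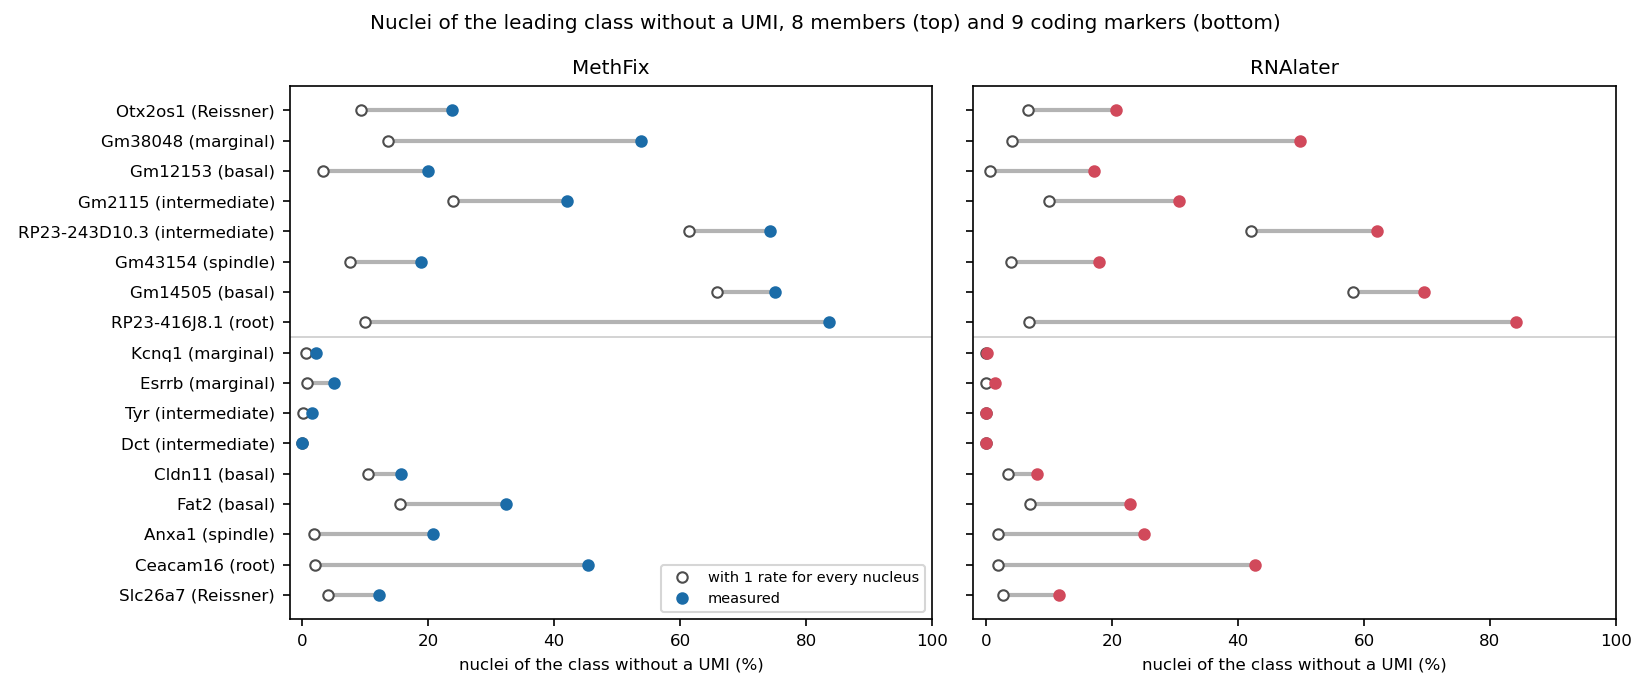
The share of nuclei of the leading class without a UMI (percent) is plotted for the 8 genes (top) and 9 coding markers (bottom), MethFix left and RNAlater right. Filled points are measured, open points are the share that a single rate for every nucleus would leave. Gm38048 sits at 53.7% and 49.9% against 13.6% and 4.18%, RP23-416J8.1 at 83.7% and 84.1% against 9.94% and 6.81%, and Dct at 0 in both.

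The overlapping gene Kcnab1 followed the same split. In MethFix it stood at 212 CPM in marginal nuclei with a Gm38048 UMI and at 24.5 in those without (476 and 59 UMIs), a log2 ratio of 3.11 with an interval of 2.72 to 3.53. In RNAlater it stood at 198 and 21.4 (393 and 42 UMIs), a log2 ratio of 3.21 (2.75 to 3.71). Of 7971 genes with at least 50 UMIs in marginal nuclei of each library, Kcnab1 had the second largest ratio by the mean of both. The largest belonged to A330015K06Rik, an antisense gene at chr3:65133060-65302685 inside the same locus, with 24.0 against 2.08 CPM in MethFix and 24.7 against 2.55 in RNAlater, log2 ratios of 3.53 (2.22 to 5.21) and 3.28 (1.96 to 4.96). A330015K06Rik is no coding neighbour and was named after its values were seen. The next 3 genes, chosen the same way and lying elsewhere, were Slc4a10 (1.50 and 2.34), Angpt1 (1.92 and 1.70) and Sema3c (1.06 and 1.99).

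The coding genes around the locus that do not overlap Gm38048 stood nearer to 0. Ssr3, a subunit of the translocon-associated protein complex and the next coding gene, had log2 ratios of 0.02 (-0.41 to 0.45) and -0.06 (-0.55 to 0.44). Tiparp, a mono-ADP-ribosyltransferase, had -0.21 and 0.13, and Lekr1 0.20 (-0.17 to 0.57) and 0.52 (0.09 to 0.94), an interval above 0 in RNAlater only. Both were looked at because they lie within 500 kb with at least 20 UMIs. Kcnq1 had -0.06 and -0.11 and Esrrb -0.09 and -0.20, so the marginal markers were not higher in the nuclei with Gm38048. The Kcnab1 ratio lay between 2.62 and 4.47 in the single marginal clusters. It was 3.13 and 3.20 in nuclei of 4000 UMIs or more, and 3.41 and 3.51 in nuclei under 1% mitochondrial UMIs. In the MethFix barcodes that RNAlater lacked it was 3.21 (2.26 to 4.32), with 56.7% of 314 marginal nuclei without Gm38048.

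Kcnab1 and A330015K06Rik, the 2 genes with the largest ratios, overlap Gm38048 on the chromosome. Reads of the shared part of the span, 41.6% in M21 and more from the RefSeq start of Kcnab1, lie on the same strand in both genes. The study's methods give default settings of Cell Ranger and do not say in words whether reads in introns were counted. The part of the counting in the joint pattern was not tested. Over the 20 and 22 clusters, the log level of Kcnab1 correlated with that of Gm38048 at r = 0.88 and 0.84, in place 51 and 13 among 10617 protein-coding genes. Outside marginal nuclei Kcnab1 stood between 3.64 and 23.0 CPM in MethFix, against 115 in marginal nuclei.

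**Figure D3:**
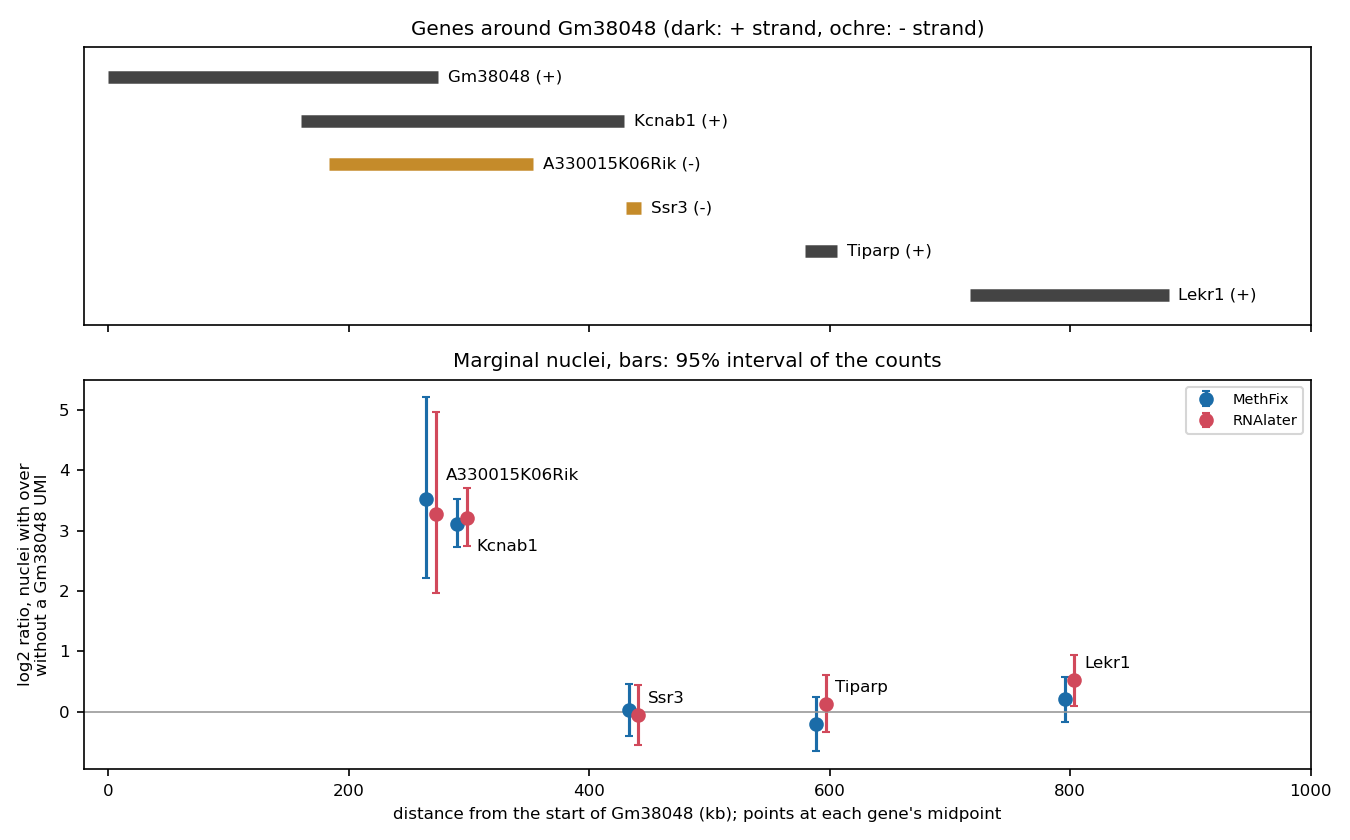
The upper panel draws Gm38048 and the genes around it by distance from its start (kb), dark for the plus and ochre for the minus strand, and the lower panel gives the log2 ratio of each gene between marginal nuclei with and without a Gm38048 UMI, with 95% intervals of the counts, MethFix blue and RNAlater red. Kcnab1 (3.11 and 3.21) and A330015K06Rik (3.53 and 3.28), which overlap Gm38048, are far above 0, and Ssr3, Tiparp and Lekr1, which do not overlap it, lie between -0.21 and 0.52.

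The split did not follow the count of Xist. Gm38048 stood at 602 CPM (577 to 627) in the 791 marginal nuclei of MethFix with an Xist UMI and no Y-linked one, and at 620.0 (571 to 672) in the 287 with neither. It was missing from 53.4% and 55.1% of them. The coding genes most like Gm38048 over clusters, by the mean Pearson correlation of log levels over 20 MethFix and 22 RNAlater clusters, were Gcnt4, a glycosyltransferase (0.93), the potassium channel gene Kcnn1 (0.90), Adam32 (0.90), Esrrb (0.87) and Jhy (0.87). These correlations share libraries and depth across their points and are descriptions.

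Outside the nuclei named marginal, Gm38048 was high in 2 unnamed clusters. In a MethFix cluster of 117 nuclei led by genes of motile cilia it stood at 274 CPM, with a UMI in 53 nuclei, and Gm12153 stood there at 261, with a UMI in 46. By marker score that cluster was nearest to marginal (3.58), with ciliated next (3.09), so it may not lie apart from the marginal class. Its median mitochondrial share was 4.12%, and genes that lead in 2 different classes met in it. In an RNAlater cluster of 9 nuclei all 46 UMIs of Gm38048 came from 1 nucleus, so that cluster's level of 1389 CPM is the level of a single barcode.

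Gm2115 and RP23-243D10.3 were the intermediate genes. Gm2115 stood at 421 CPM in intermediate nuclei in MethFix (399 to 443) and at 456 in RNAlater (432 to 482). The other classes pooled stood at 7.80 and 9.86, log2 ratios of 5.75 (5.39 to 6.14) and 5.53 (5.19 to 5.90). Basal nuclei came next at 18.1 and 26.3. RP23-243D10.3 stood at 129 (117 to 142) and 163 (149 to 179) in intermediate nuclei and at 7.17 and 5.00 in the others, log2 ratios of 4.17 and 5.03. In fibrocyte nuclei it reached 84.4 (52.9 to 128, 22 UMIs) and 65.8 (17.9 to 169, 4 UMIs), which left log2 ratios over that class of 0.61 (-0.01 to 1.30) and 1.31 (-0.05 to 3.19). Both intervals include 0, so RP23-243D10.3 was not separated from fibrocyte nuclei at this depth.

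Gm2115 lies at chr7:84528954-84583531 on the plus strand, in 2 transcripts, with no coding gene overlapping it. Its nearest coding neighbour is Fah, the last enzyme of tyrosine breakdown, which is read towards Gm2115 and ends 1.63 kb past it, and on the other side lies Arnt2, a partner of basic helix-loop-helix PAS factors. Neither followed Gm2115. Fah stood at 18.6 and 21.8 CPM in intermediate nuclei and at 30.6 and 20.6 in spindle nuclei, and within intermediate nuclei its log2 ratio between those with and without Gm2115 was -0.01 (-0.78 to 0.80) and 0.00 (-0.82 to 0.88). Arnt2 had -0.22 (-0.66 to 0.22) and 0.05 (-0.47 to 0.60). The genes most like Gm2115 over clusters were the melanin enzyme Dct (0.96), Car8 (0.96), the calcium-activated potassium channel gene Kcnn4 (0.95), Hkdc1 (0.94) and the collagen gene Col5a3 (0.94), none of them neighbours.

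The RefSeq promoter of Gm2115, at chr7:84528724-84529023 on the plus strand of GRCm38.p6, is shown because it is 1 of only 2 promoters found for the 8 genes and because it starts 20 bases from the first base of Gm2115 in M21. It was searched on both strands for CATGTG (the M-box that the melanocyte factor MITF binds), TAATCC (OTX type), AAGGTCA (ESRRB type) and ACAAAG (SOX type). None of these was found in it, so it has no capitals. Of 32851 RefSeq promoters of the same 300 bases, 14.2% hold CATGTG, 7.06% TAATCC, 4.72% AAGGTCA and 18.7% ACAAAG.
Gm2115 promoter: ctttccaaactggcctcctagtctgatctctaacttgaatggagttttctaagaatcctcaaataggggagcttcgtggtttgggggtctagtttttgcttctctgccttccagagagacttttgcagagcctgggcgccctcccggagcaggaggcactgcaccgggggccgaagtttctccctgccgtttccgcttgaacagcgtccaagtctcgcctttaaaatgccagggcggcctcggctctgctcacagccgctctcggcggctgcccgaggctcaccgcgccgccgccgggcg

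RP23-243D10.3 lies at chr7:123031374-123169678 on the plus strand, spans 138 kb and has 3 exons of 177, 126 and 143 bases. Of its 446 exon bases, 405 also belong to exons of other genes on the same strand, so its counts are uncertain. Exon 1 shares 136 bases with the noncoding gene Gm45847, exon 2 all of its 126, and exon 3 lies whole within an exon of Tnrc6a, a scaffold protein of microRNA silencing. Exon 1, at chr7:123031374-123031550, is shown because it holds the only 41 exon bases of RP23-243D10.3 that no other gene claims, in lower case, followed in capitals by those shared with Gm45847.
RP23-243D10.3 exon 1: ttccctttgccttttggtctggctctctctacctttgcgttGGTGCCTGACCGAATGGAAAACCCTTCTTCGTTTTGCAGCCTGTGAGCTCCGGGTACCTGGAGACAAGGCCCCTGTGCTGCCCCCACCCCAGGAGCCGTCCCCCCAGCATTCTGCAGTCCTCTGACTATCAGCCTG

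Tnrc6a itself was expressed at like levels in all classes, between 89.3 and 129 CPM in MethFix and between 85.8 and 165 in RNAlater, with intermediate nuclei at 89.3 and 93.8. The class pattern of RP23-243D10.3 therefore did not appear in the gene that shares its last exon. Within intermediate nuclei Tnrc6a had a log2 ratio of 0.43 (0.08 to 0.78) and 0.34 (-0.02 to 0.70) between those with and without RP23-243D10.3. Over clusters the correlation of the pair was 0.14 and 0.17. The genes most like RP23-243D10.3 were the receptor phosphatase gene Ptprt (0.85), Cklf (0.81), Wdr17 (0.80), the ceramide synthase gene Cers6 (0.80) and Garnl3 (0.80).

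Gm2115 and RP23-243D10.3 differed in opposite directions between the largest 2 clusters of intermediate nuclei. In the cluster led by Opcml and Spon1, Gm2115 stood at 578 CPM in MethFix and 580.5 in RNAlater, and in the cluster led by Kcnj13 and Pax3 at 276 and 273. Its log2 ratio between the clusters was 1.06 (0.88 to 1.25) and 1.09 (0.89 to 1.29). RP23-243D10.3 went the other way, at 98.4 and 127 in the first and 201 and 232 in the second, log2 ratios of -1.03 (-1.33 to -0.74) and -0.88 (-1.16 to -0.59). The intervals of the 2 genes did not overlap in either library. In MethFix the smaller clusters did not continue that order. The cluster led by Ifnk (137 nuclei) was low in both, at 223 and 36.6, and the cluster led by mitochondrial transcripts (77 nuclei) stood at 334 and 81.6. In RNAlater the smaller cluster, led by Syt4 (74 nuclei), lay nearer to the Opcml and Spon1 cluster for both genes. The 2 clusters compared carried few mitochondrial UMIs, with medians of 0.40% and 0.46% in MethFix. Clusters were chosen for this comparison after their values were seen, and nuclei of 1 library are not replicates.

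**Figure D4:**
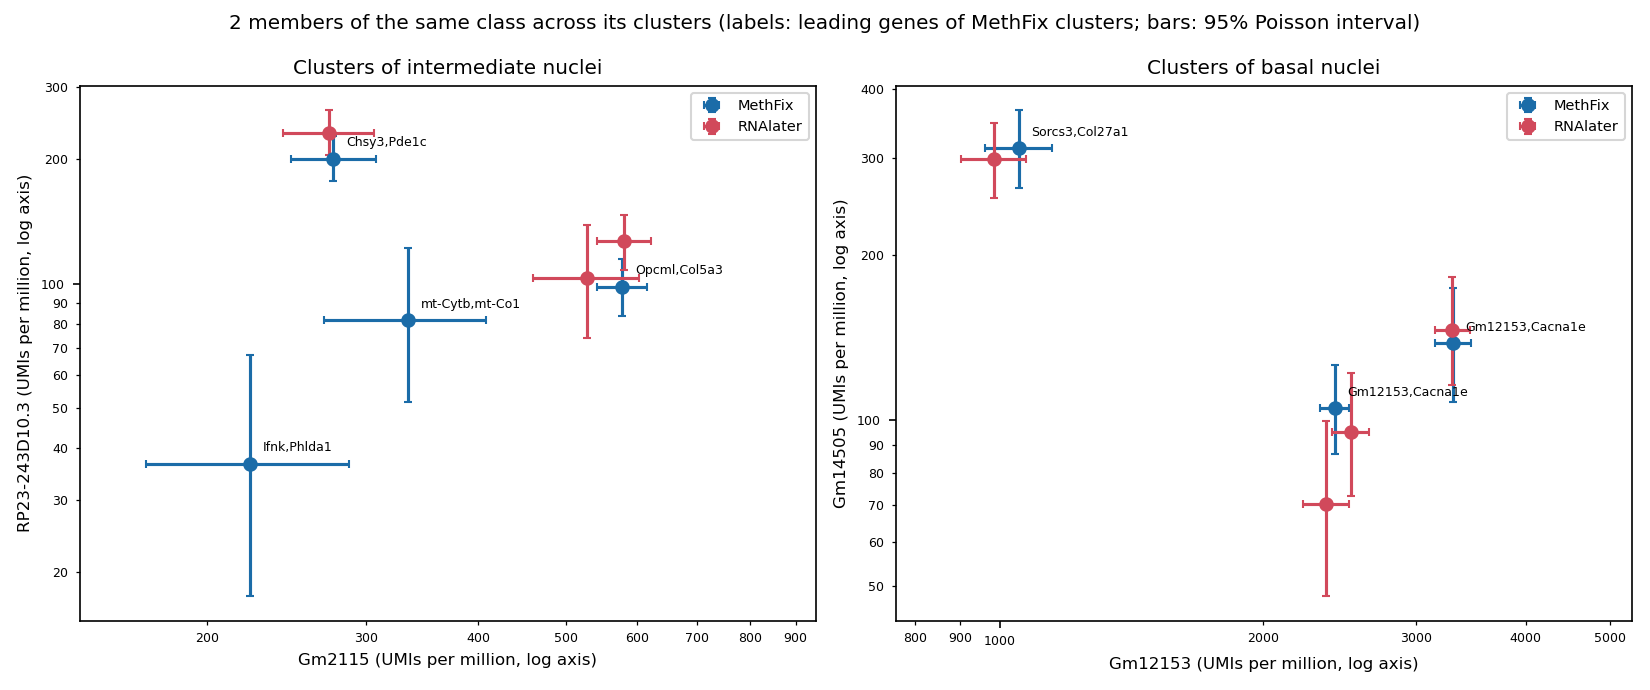
Each point is a cluster of intermediate nuclei (left, Gm2115 against RP23-243D10.3) or basal nuclei (right, Gm12153 against Gm14505), in CPM on log axes with 95% Poisson intervals, MethFix blue and RNAlater red, and labels give the leading genes of the MethFix clusters. The cluster labelled Chsy3 is the cluster called above by its leading genes Kcnj13 and Pax3, at 276 for Gm2115 and 201 for RP23-243D10.3, and the basal cluster labelled Sorcs3 has the lowest Gm12153 (1052) and the highest Gm14505 (312).

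Gm12153 and Gm14505 were the basal genes. Gm12153 stood at 2322 CPM in basal nuclei in MethFix (2257 to 2388) and at 2304 in RNAlater (2241 to 2368), with a UMI in 80.1% and 82.8% of those nuclei. The other classes pooled stood at 10.1 and 3.57, log2 ratios of 7.85 (7.55 to 8.16) and 9.33 (8.80 to 9.93), without the unnamed clusters. Over all nuclei kept, basal nuclei held 95.6% and 98.9% of its UMIs. The marker Cldn11 had 1232 and 1293 in the same nuclei and was missing from 15.7% and 8.09% of them, against 19.9% and 17.2% for Gm12153. Thinned to 1000 UMIs each, 72.0% and 66.8% of basal nuclei still had a UMI of Gm12153. Gm14505 stood at 161 (144 to 179) and 154 (138 to 171) in basal nuclei and 3.47 and 1.40 in the others, log2 ratios of 5.54 and 6.78. Fibrocyte nuclei held it at 80.6 (49.9 to 123, 21 UMIs) and 132 (56.8 to 259, 8 UMIs), so over that class the log2 ratio was 1.00 (0.36 to 1.71) and 0.22 (-0.77 to 1.45).

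Gm12153 lies at chr11:43959089-44134987 on the plus strand, spans 176 kb in 7 exons and overlaps no other gene. RefSeq starts it 32.8 kb inside that span, so its promoter there is not shown. Its nearest coding gene, Adra1b, an alpha-1 adrenergic receptor, lies 57.9 kb away and is read in the other direction, so that the pair diverge. Adra1b was also a basal gene, at 348 (323 to 374) and 377 (352 to 404) CPM in basal nuclei and between 0 and 34.5 in every other class of MethFix. Over clusters it correlated with Gm12153 at 0.88 and 0.96, in place 19 and 3 of 10617 coding genes. Within basal nuclei Adra1b was at 373 against 177 in those with and without Gm12153 in MethFix, and at 404 against 195 in RNAlater, log2 ratios of 1.07 (0.65 to 1.53) and 1.05 (0.65 to 1.48).

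That difference was not particular to the neighbour. Fat2, an atypical cadherin on another part of chromosome 11, had log2 ratios of 0.97 (0.72 to 1.23) and 1.28 (1.01 to 1.56) in the same nuclei, and Cldn11 0.46 and 0.43. Nuclei without Gm12153 were also shallower, at medians of 1734.5 against 2833.5 UMIs in MethFix and 2615.5 against 3729 in RNAlater. Il12b, the coding gene on the other side, had 0 UMIs in basal nuclei. The genes most like Gm12153 were Cd2, a cell adhesion molecule (0.96), Spsb4 (0.95), Tspan32 (0.94), Greb1 (0.93) and the lipid droplet gene Plin4 (0.92). In an unnamed RNAlater cluster of 23 nuclei led by A2m and Slc4a11, Gm12153 reached 1384 CPM from 26 UMIs in 7 nuclei. By marker score that cluster was nearest to basal (4.66), with fibrocyte next (3.76).

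Gm14505 lies at chrX:14796735-14839980 on the plus strand, with 2 exons and no gene overlapping it. Its nearest coding genes, Gm5382, listed as H2al1n in M21, and Cypt1, lie 585 and 1683 kb away, and both had 0 UMIs in basal nuclei, so no neighbour could be compared. Between clusters of basal nuclei it differed in the opposite direction from Gm12153. The clusters led by Cacna1e held Gm12153 at 2701 and 2882 CPM and the cluster led by Sorcs3 at 1052 and 984, log2 ratios of 1.36 (1.23 to 1.50) and 1.55 (1.42 to 1.68). Gm14505 stood at 116 and 119 in the first and at 312 and 298 in the second, log2 ratios of -1.43 (-1.75 to -1.11) and -1.33 (-1.66 to -0.99). The largest Cacna1e cluster in MethFix had a median mitochondrial share of 3.84% beside 0.56% in the Sorcs3 cluster. A second Cacna1e cluster, at 0.50%, had 3305 for Gm12153 and 138 (108 to 174) for Gm14505. Among all basal nuclei, Gm14505 stood at 224 and 209.8 CPM in those under 1% mitochondrial UMIs and at 116 and 106 in those from 1% to 10%, where Gm12153 stood at 2298 and 2196 and at 2338 and 2396. The part of the mitochondrial share in the lower Gm14505 level was not tested. Between single nuclei the opposite direction was not seen in both libraries, since with every nucleus thinned to the same number of UMIs Gm14505 was found in 13.0% of basal nuclei with Gm12153 and 15.1% of those without in MethFix, and in 14.3% and 12.9% in RNAlater. The genes most like Gm14505 over clusters were the magnesium channel gene Trpm6 (0.92), Lctl (0.92), the sulfate transporter gene Slc13a4 (0.91), the Wnt receptor ligand Ndp (0.90) and Endou (0.90).

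Gm43154 was the spindle gene. It stood at 1326 CPM in spindle nuclei in MethFix (1190.1 to 1473, 347 UMIs in 96 nuclei) and at 1364 in RNAlater (1205 to 1539, 265 UMIs in 56 nuclei). A UMI was present in 81.2% and 82.1% of these nuclei, beside 79.2% and 75.0% for the rule marker Anxa1, a calcium-dependent phospholipid-binding protein. In the other classes pooled Gm43154 stood at 2.62 and 3.25, log2 ratios of 8.98 (8.44 to 9.58) and 8.71 (8.18 to 9.29), and Reissner's membrane nuclei came next at 22.7 and 20.4. It was higher in its class relative to the rest than Anxa1, whose log2 ratio was 6.87 and 6.5. Because spindle nuclei were few, its UMIs were still not a sure sign of the class: of nuclei with at least 1 UMI, 72.2% and 65.7% were spindle, and of those with at least 2, 92.8% and 87.2%.

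Gm43154 lies at chr6:31605190-31798053 on the plus strand, with 14 transcripts and 23 exon blocks. Its nearest coding gene, Podxl, which encodes the sialomucin podocalyxin, lies 41.2 kb away and is read in the other direction. Podxl stood at 138 CPM (96.4 to 190.5) in spindle nuclei of MethFix and at 149 in those of RNAlater, from 36 and 29 UMIs. It was also found in Reissner's membrane nuclei, at 75.6 and 65.3, and stayed between 0 and 2.79 elsewhere. The pair correlated over clusters at 0.51 and 0.49, and 3 and 0 Podxl UMIs in the spindle nuclei without Gm43154 were too few for a ratio. Anxa1 was not higher where Gm43154 was found, with log2 ratios of -0.98 (-1.24 to -0.70) and 0.05 (-0.44 to 0.58). On the far side 1700012A03Rik had 0 UMIs. The genes most like Gm43154 were the sulfatase gene Arsj (0.85), Hpse2 (0.83), Il1rapl2 (0.82), Ssc4d (0.80) and Anxa1 (0.79).

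RP23-416J8.1 was counted in root nuclei, but in a small part of them. As a class, root nuclei held it at 1042 CPM in MethFix (925 to 1169.9) and 1103 in RNAlater (989 to 1227), against 3.53 and 4.31 in the other classes, log2 ratios of 8.21 (7.72 to 8.73) and 8.0 (7.53 to 8.5). Every one of these UMIs, 286 and 340, lay in a single cluster of 14 nuclei in MethFix and 13 in RNAlater. There it stood at 5319 (4720.2 to 5972) and 6049 (5423 to 6727) CPM, with at least 2 and 3 UMIs in each nucleus and a median of 19.5 and 27. The other 72 and 69 root nuclei had 0 UMIs, which leaves a share of up to 4.99% and 5.21% of nuclei with a UMI by the exact Clopper-Pearson interval.

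The markers of root cells were mixed in those nuclei. Root clusters were named from Ceacam16, Lgr5, Epyc and Rorb together. Ceacam16, a protein best known from the tectorial membrane, was higher in the nuclei with RP23-416J8.1. It stood at 6490.5 CPM in MethFix beside 1472 in the other root cluster, and at 7169 in RNAlater beside 171 and 2813 in the other 2. Slc26a4 (pendrin, an anion exchanger of root and spindle cells) had 0 UMIs in all 14 and 13 nuclei, beside 2682 CPM in the other MethFix root cluster and 4299 and 539 in RNAlater. Epyc, a small proteoglycan, also had 0, beside 802, 409 and 1167. Rorb, a nuclear receptor, stood at 6695 and 6565 there, beside 485, 732 and 59.9. Lgr5, a receptor for R-spondins, was present at 260.4 (142 to 437) and 320.2 (189.8 to 506) CPM, with a UMI in 4 of the 14 and 4 of the 13 nuclei, beside 720.3, 1200.0 and 99.8. The nuclei with RP23-416J8.1 are therefore called here by their leading genes, Dgkb and Ceacam16, rather than as root cells. Clusters were formed without RP23-416J8.1, but their genes are the ones that were clustered, so these differences are descriptions.

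RP23-416J8.1 lies at chr4:142598441-143074839 on the minus strand, spans 476 kb and has 3 exons, and M21 lists it as the processed transcript 6330411D24Rik. Prdm2, a histone methyltransferase, lies 32.6 kb upstream, and Kazn, a protein of the cell junction, 359 kb downstream. In the Dgkb and Ceacam16 nuclei Prdm2 had 3 and 4 UMIs and Kazn 7 and 6, at 55.8 and 71.2 and at 130.2 and 107 CPM. Prdm2 stood at 115 and 119 in marginal nuclei, where RP23-416J8.1 was at 1.07 and 1.27, so Prdm2 did not show its pattern. Kazn stood at 72.5 in the other root cluster of MethFix, with a log2 ratio between root nuclei with and without RP23-416J8.1 of 0.84 (-0.68 to 2.21). The genes most like RP23-416J8.1 were the Notch ligand Jag1 (0.88), Plbd1 (0.87), the diacylglycerol kinase Dgkb (0.82), Herc4 (0.80) and Klhl14 (0.80). Basal nuclei held a low level, 12.8 (8.46 to 18.7) and 14.5 (9.93 to 20.5), with 16 of the 27 UMIs of MethFix in the Sorcs3 cluster at 33.1 CPM and 6.80 in the Cacna1e clusters.

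Otx2os1 was the gene of Reissner's membrane. It stood at 1394 CPM in MethFix (1280.4 to 1515, 553 UMIs) and at 1441 in RNAlater (1337 to 1552, 706 UMIs), with a UMI in 76.3% and 79.4% of the nuclei. The other classes pooled stood at 1.37 and 1.67, log2 ratios of 9.99 (9.25 to 10.84) and 9.75 (9.04 to 10.57). Spindle nuclei came next, at 19.1 (6.20 to 44.6, 5 UMIs) and 36.0 (14.5 to 74.2, 7 UMIs). Basal nuclei had 0 UMIs in 752 and 593 nuclei, which leaves a share of up to 0.489% and 0.620% by the exact Clopper-Pearson interval. No UMI was found in 23.7% and 20.6% of the nuclei, where the same rate per UMI in every nucleus would have left 9.36% and 6.62%. The nuclei without one were shallower, with medians of 1550 and 1673.5 UMIs beside 2698 and 3296 in the others. The part of depth in that share was not tested.

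Otx2os1 is read away from Otx2, the homeobox transcription factor of the anterior head and sense organs. It lies at chr14:48668708-48870683 on the plus strand, in 7 transcripts over 202 kb, and its first bases overlap Otx2 at chr14:48657677-48673819 on the minus strand. The Otx2 promoter with the start nearest to it, 1064 bases from the first base of Otx2os1, lies at chr14:48667595-48667894 on the minus strand. It is shown because it faces the long noncoding RNA, and its capitals mark a match to CATGTG read on the other strand, 124 bases before the Otx2 start. A second Otx2 promoter, at chr14:48665060-48665359, is shown because it holds the OTX type letters TAATCC, also on the other strand, 211 bases before its start. A match to so few letters is a description of the sequence and not of a bound site.
Otx2 promoter nearest the start of Otx2os1: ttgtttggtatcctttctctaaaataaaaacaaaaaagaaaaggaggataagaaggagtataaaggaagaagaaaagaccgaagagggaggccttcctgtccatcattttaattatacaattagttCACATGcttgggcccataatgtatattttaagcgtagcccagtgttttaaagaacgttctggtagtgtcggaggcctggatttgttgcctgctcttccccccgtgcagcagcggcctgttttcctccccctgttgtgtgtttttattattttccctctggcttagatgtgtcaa
Otx2 promoter with an OTX type match: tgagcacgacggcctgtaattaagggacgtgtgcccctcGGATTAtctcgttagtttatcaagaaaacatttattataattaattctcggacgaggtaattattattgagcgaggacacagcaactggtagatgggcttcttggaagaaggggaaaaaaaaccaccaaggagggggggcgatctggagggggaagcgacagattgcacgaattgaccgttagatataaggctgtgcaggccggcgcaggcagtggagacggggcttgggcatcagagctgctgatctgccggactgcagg

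Otx2 followed Otx2os1 between classes and clusters. It stood at 363 (306 to 427) and 337 (287 to 392) CPM in Reissner's membrane nuclei, at 42.0 and 46.3 in spindle nuclei, and between 0 and 2.36 in the other classes. Over clusters the pair correlated at 0.90 and 0.98, in place 9 and 1 of 10617 coding genes. Between nuclei of Reissner's membrane that did and did not hold Otx2os1 it differed by log2 ratios of 0.16 (-0.52 to 0.92) and 0.04 (-0.64 to 0.79), 369 against 329 CPM in MethFix and 338 against 329.8 in RNAlater. A difference beyond counting error was not detectable there, and the intervals still include ratios as large as 0.92. Kcnab1 had 3.11 in the corresponding comparison for Gm38048 in MethFix. In that ratio the 2 pairs of overlapping genes differed by more than their counting intervals, but the 2 splits were not alike. Nuclei without Otx2os1 were shallower, at medians of 1550 and 1673.5 UMIs beside 2698 and 3296, whereas depth was alike in the Gm38048 split. Kcnab1 also lies on the same strand as Gm38048, and Otx2 on the other strand from Otx2os1. The part of depth and strand was not tested. After Tmem72 (0.95) and Otx2 (0.94), the genes most like Otx2os1 were Grpr, a bombesin receptor (0.94), Gm21949 (0.94) and Bbox1, the last enzyme of carnitine synthesis (0.92). The flanking genes Tmem260 and Exoc5 had log2 ratios with intervals that included 0 in both libraries.

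Of the 8 genes, 7 had a coding neighbour with UMIs in their leading class, all but Gm14505. Kcnab1, Adra1b, Otx2 and Podxl were highest in the class of their partner in both libraries. Fah, Arnt2, Tnrc6a, Rbbp6, Prdm2, Exoc5, Ssr3 and Slc5a11 were not. Tmem260 was highest in Reissner's membrane nuclei in MethFix (194) but in fibrocyte nuclei in RNAlater (247, beside 176), and Kazn in root nuclei in MethFix (83.8) but in spindle nuclei in RNAlater (77.2). Of the 7378 genes tested, 2085 were led by marginal, 1613 by basal, 850 by Reissner's membrane and 459 by spindle nuclei. The share for neighbours at large was not taken, so nothing is read from the matches in class. Promoters were found in RefSeq for 19 of the 27 genes looked up, 27 promoters in all, of which 18 held none of the 4 motifs. For RP23-243D10.3, Gm43154, Gm14505, RP23-416J8.1, Gm38048 and Otx2os1 no promoter of their own was found under their symbols or identifiers.

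Other long noncoding RNAs of a list taken from general knowledge served for comparison. Of 32 listed, 29 were matched among the features and 13 had enough UMIs to be counted. Over the other classes pooled and over the next class, 25.5% and 6.83% of all genes passed, and 44.6% and 13.6% of long noncoding genes. Of the 13, 7 passed the first mark, a log2 ratio of 2 over the other classes pooled, and 3 the second, over the next class. The 3 were Pvt1 in marginal nuclei (321 and 335 CPM), Emx2os in Reissner's membrane nuclei (1268 and 1368) and A230001M10Rik in root nuclei (372 and 396). Meg3, Kcnq1ot1, Snhg11 and D430041D05Rik passed the first mark but not the second, and M21 lists Snhg11 and D430041D05Rik as protein coding. The 4 had log2 ratios of 3.78 and 4.58, 2.53 and 2.52, 2.31 and 2.40, and 3.66 and 4.11. Malat1, Neat1 and Mir99ahg, named for their counts over all nuclei, passed neither, at log2 ratios of 0.86 and 0.75, 1.82 and 1.88, and 0.81 and 0.80. Kcnq1ot1, which lies within the marginal gene Kcnq1, was highest in basal nuclei, at 2112 and 1967.

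Values of the 8 genes in the 2 matrices were tied by the shared barcodes. Of nuclei named alike in both with a UMI of the gene in at least 1 matrix, the count was equal in between 7.69% (RP23-416J8.1, 1 of 13 nuclei) and 41.6% (Gm2115, 157 of 377). The smaller of the 2 counts of each such nucleus, summed, came to 85.1% (Gm14505) or more of the MethFix UMIs. That is an overlap of counts, since single molecules were not traced between the matrices. The MethFix barcodes that RNAlater lacked were free of this overlap. In them Gm38048 stood at 686 CPM in marginal nuclei (629.6 to 747) beside 592 in shared barcodes, Gm12153 at 2215 beside 2332, Gm43154 at 1240.0 beside 1358, Gm14505 at 159 beside 161 and Gm2115 at 347 (307 to 391) beside 443. RP23-243D10.3 was lower there, at 66.6 (49.6 to 87.5) beside 147. Otx2os1 was lower too, at 367 (135 to 798) from 6 UMIs in 11 nuclei, and RP23-416J8.1 could not be read, with 4 root nuclei and 0 UMIs. These nuclei were shallower, for example at a median of 2297 UMIs beside 4634.5 for intermediate nuclei, and the part of depth in the lower levels was not tested.

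**Figure D5:**
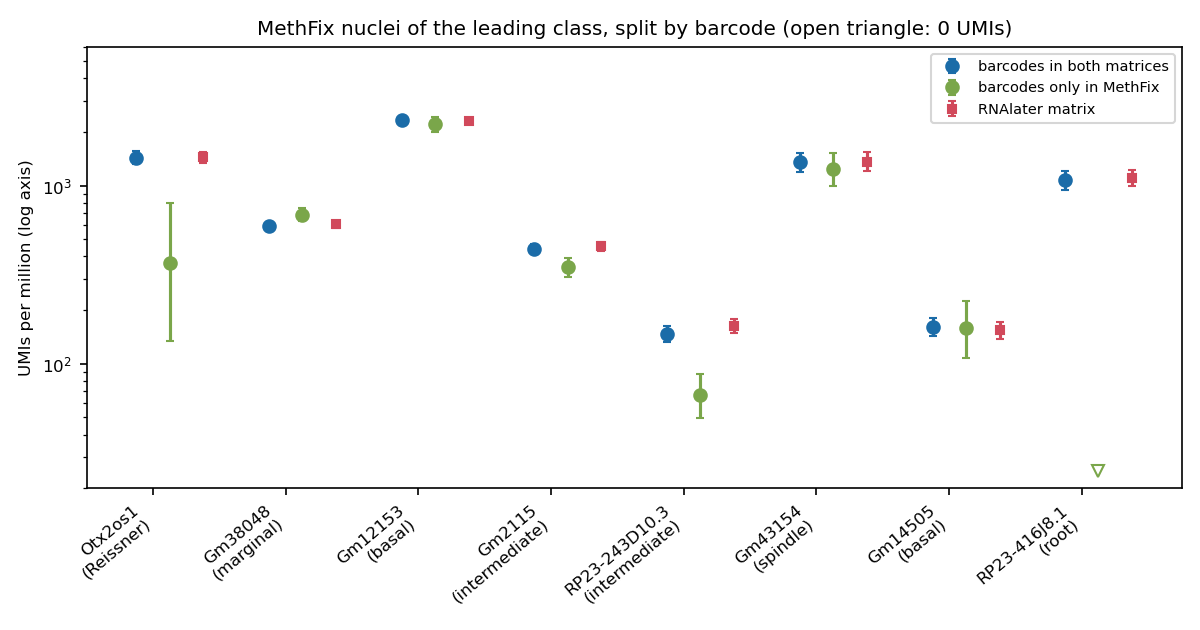
CPM (log axis) of the 8 genes in their leading class are plotted for MethFix nuclei whose barcode is in both matrices (blue), MethFix nuclei whose barcode RNAlater lacks (green) and RNAlater nuclei (red squares), with 95% Poisson intervals. For Gm12153 (2215 beside 2332), Gm43154 and Gm14505 the green point lies close to the blue. It lies higher for Gm38048 and lower for Gm2115, Otx2os1 (367), RP23-243D10.3 (66.6) and RP23-416J8.1 (an open triangle, 0 UMIs).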

How the data were processed

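Nuclei of stria vascularis were counted in 2 droplet libraries, MethFix and RNAlater. The authors deposited raw UMI counts per gene and barcode, made with Cell Ranger 3.0.1 on GRCm38 per the labels. The study's methods give default settings and do not say in words whether introns were counted. The members and the lists were chosen with earlier results of these data known.

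Nuclei with at least 200 genes, at most 8000 UMIs and at most 10% mitochondrial UMIs were kept, and Scrublet doublets (6.23% and 0.773%) removed. Depths were 21027671 and 17681824 UMIs in all barcodes. The 4000 most variable protein-coding genes, without the 8 genes and their neighbours, gave 30 components and Leiden clusters at resolution 1 and 1.5 (Scanpy 1.11.5, leidenalg 0.10.2). Clusters were named from coding marker lists. The rule on marker scores was set after the clusters had been seen. Fibrocyte nuclei differed in make-up between libraries.

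Counts were summed per class. Log2 ratios carry exact conditional intervals at 95%, with a floor of 3 UMIs. Genes with at least 20 UMIs in the leading class were ranked. Shares were also taken after thinning nuclei to 1000 UMIs. Correlations used log2 levels with 10 CPM added. With 1 library for each method and shared barcodes, no p-value was computed. Named genes were the 8 genes, their nearest and overlapping coding genes, the 5 coding genes most like each, the class markers, and of the comparison list those past the mark and the 3 with most counts. Any other gene, and each pair of clusters compared, was chosen after its values were seen. Gene models were those of GENCODE M21, promoters those of RefSeq (GRCm38.p6). The calling step was also run on simulated Poisson counts with the classes given. Unchanged genes were not called, and nearly all genes raised beyond the mark led in the right class. Clustering, naming, free RNA and uneven spread over nuclei were not simulated. Alternatives are given in the closing section.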

Additional observations from a re-analysis of the deposited data

How the results depend on the processing

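Shared barcodes were set side by side, but no paired test was made because each method had 1 library. No result came from a test. All 8 genes passed the log2 ratio of 2 over the other classes in 12 of the 14 alternatives run, which changed the nuclei kept, the clustering, the scaling or the UMI minimum. With all genes used to cluster, 7 passed. Gm14505 was then highest in fibrocyte nuclei, and its basal log2 ratio was 5.53 and 6.69. In the MethFix barcodes that RNAlater lacked, 6 passed. Otx2os1 had 6 UMIs there, under the minimum of 20, at a log2 ratio of 9.42, and RP23-416J8.1 had no root class. The count of all genes past that mark was 1078 there against 1884, with 2983 genes tested against 7378. Over the next class, between 4 and 8 of the 8 genes passed. Counts of 7 or 8 came only from alternatives that left no fibrocyte class to compare. Fibrocyte was the next class of RP23-243D10.3 and Gm14505, the 2 that did not pass as reported. The share of all genes past that mark was 6.83% as reported and was not taken in the alternatives. Of 215 levels recomputed, 188 stayed within the counting interval, and all 215 log2 ratios were at least 2 (3.85 to 10.21). Some of these values could not differ. Alternatives that changed only the UMI minimum or the floor used the same sums. They could not move a level or ratio of the 8 genes, and all 8 lay well above either minimum. RNAlater values were likewise fixed where only MethFix barcodes were removed. With nuclei classed by their own rule markers, RP23-416J8.1 rose to 2729.5 and 2849.8 CPM. In the MethFix-only barcodes Otx2os1 stood at 367 and RP23-243D10.3 at 66.6, and the cause was not tested. Few nuclei limit the spindle, root and fibrocyte classes, with 96, 86 and 102 nuclei in MethFix and 56, 82 and 16 in RNAlater.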
